A study of Mus musculus with 12 samples.

Results

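The genes considered here are 10 members of the protein quality-control machinery, the small heat shock proteins (sHSPs) *Hspb1*, *Hspb8* and *Cryab*, the BAG factors *Bag1*, *Bag2*, *Bag3*, *Bag4*, *Bag5* and *Bag6*, and *Hspbp1*. Their mRNAs were chosen by name, and the Entrez identifiers in the count tables were mapped to mouse symbols. All 10 were found among the 27179 genes listed, and all 10 passed the filter on low counts that kept 14185 genes for testing. The RNA came from primary hippocampal neurons of newborn mice, labelled C57BL/6 (the methods also name FVB), that were 17 or 18 days in culture. They grew on porous Transwell membranes, which let neurites (axons and dendrites) pass while the somas stay on top, so that the fractions could be lysed apart. MG132, a proteasome inhibitor, was given at 10 µM for 7 h, and control (Ctrl) neurons received the solvent DMSO. The 4 groups were Ctrl somas, MG132 somas, Ctrl neurites and MG132 neurites, with 3 polyA-selected RNA-Seq libraries in each. Nothing in the sources used here says which animals or culture wells a library came from, so the p-values measure the spread between these libraries, which may be partly technical.

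sHSPs bind unfolding proteins without using ATP and hold them in a state from which HSP70 chaperones can refold them. Most BAG factors share a BAG domain that docks on HSP70 and speeds the release of its nucleotide and client, and they differ in where they send that client. BAG1 carries a ubiquitin-like domain and links HSP70 to the proteasome, whereas BAG3 binds HSPB8 and routes aggregated clients to autophagy. HSPBP1 is a nucleotide exchange factor of HSP70 that has no BAG domain.

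Library totals ranged from 4247610 to 22166347 counted reads. Levels are given as CPM (counts scaled to library size with TMM factors), with the mean ± SD of 3 libraries. Differences are log2 fold changes with their standard error (SE) from edgeR's quasi-likelihood test across all tested genes with Benjamini-Hochberg adjusted p-values. A gene was called changed at an adjusted p under 0.01 and a change of more than 1.7-fold. Cell markers showed cultures of mixed make-up. All 7 neuronal markers, among them *Map2* and *Rbfox3*, were present in every group, and their summed level was 808 to 1857 CPM in soma libraries and 1144 to 3712 CPM in neurite libraries. The 7 astrocyte markers summed to 4598 to 5680 CPM in somas without and 2438 to 3158 CPM in somas with MG132, and to 20796 to 25749 and 9639 to 19714 CPM in neurites without and with it. The 7 oligodendrocyte markers summed to 521 to 6920 CPM in soma libraries and 2971 to 23149 CPM in neurite libraries, and the 7 microglial markers to 535 to 1061 CPM in Ctrl libraries and 82.4 to 249 CPM in MG132 libraries. The 7 vascular and fibroblast markers summed to 18.3 to 166 CPM, with 1 of them, *Cldn5*, at no more than 3 counts in any group. The 5 nuclear RNAs of cell bodies, *Malat1* among them, summed to 5773 to 9002 CPM in somas and 1828 to 4100 CPM in neurites. A few abundant genes weighed heavily in the neuronal, astrocyte and oligodendrocyte sums. In Ctrl neurites *Gfap* alone measured 15606 to 21600 CPM and *Mbp* 3714 to 18913 CPM. The sums therefore do not show how most markers of a list divide between fractions. The median log2 ratio of neurites to somas in Ctrl was 1.01 over the astrocyte, 0.04 over the oligodendrocyte and -0.13 over the neuronal markers. Astrocyte ratios ran from -1.08 (*Gja1*) to 3.18 (*Gfap*). The part of these other cells in the results below was not tested, and in such bulk samples fewer cells of a type cannot be told apart from less RNA per cell. The terms Ctrl neurons and MG132 neurons below stand for these mixed cultures under each treatment.

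The first question was which members respond to proteasome inhibition, and in which fraction. MG132 raised 4 of the 10 members in somas, *Hspb1*, *Cryab*, *Bag3* and *Hspb8*, and 3 of them in neurites, *Hspb1*, *Bag3* and *Cryab*. No member was called lower in either fraction. Of all tested genes, 9% were called higher in somas and 9.25% in neurites, while 5.58% and 5.44% were called lower. The median log2 change over the 10 members was 0.58 in somas and 0.29 in neurites, against -0.07 and -0.16 over all tested genes. All of these values come from a fit without a block for replicate number. With that block 4 members were called higher and 0 lower in each fraction, *Bag5* joining the 3 in neurites. The shares of all tested genes above are from the fit without the block, so they are no background for these blocked counts.

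**Figure D1:**
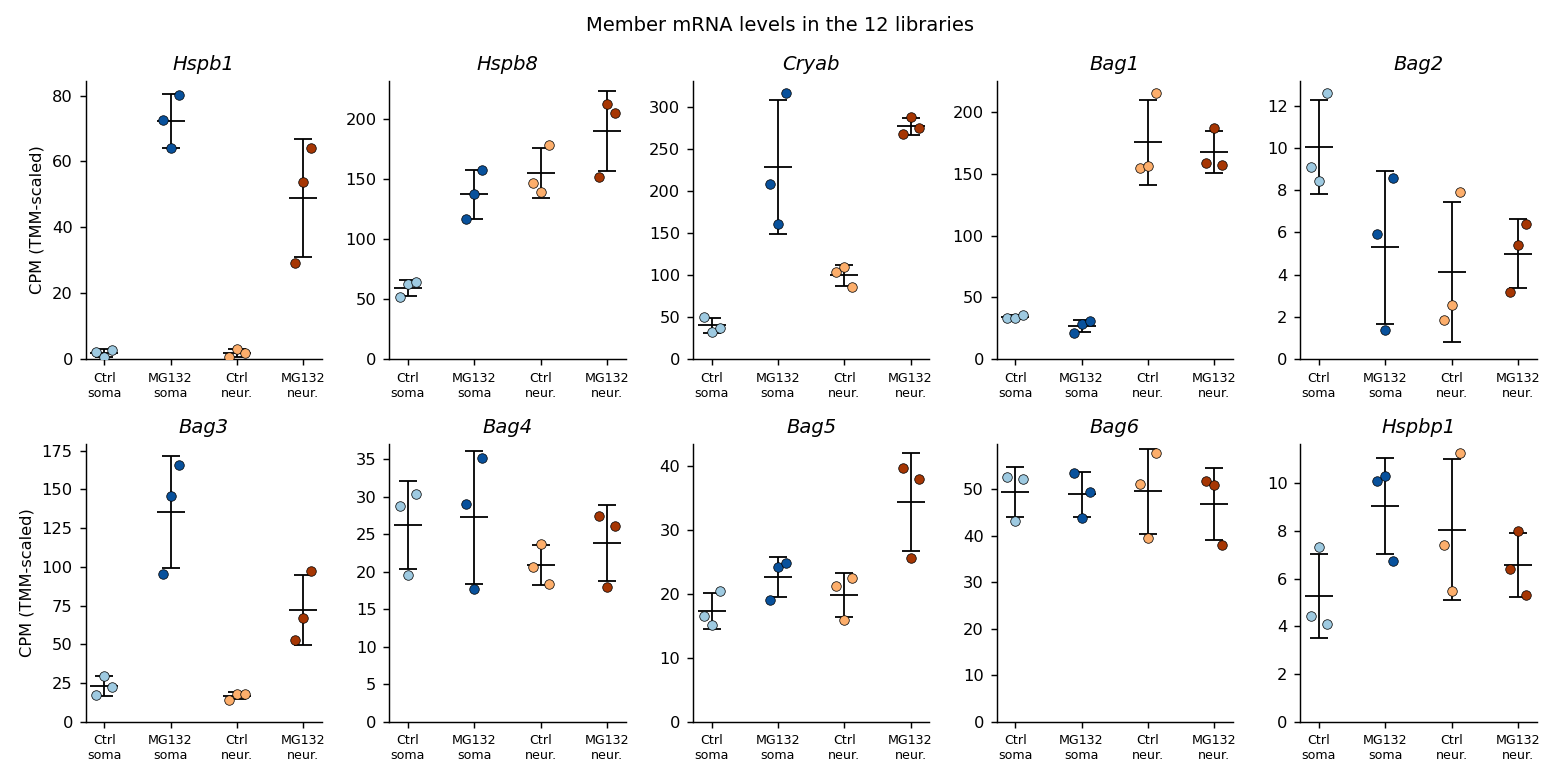
Level of each of the 10 members in the 12 libraries (y axis, TMM-scaled CPM, starting at 0) by group (x axis). Points are libraries, the long horizontal bar is the mean and the whiskers are ± SD (n = 3). *Hspb1* lies below 4 CPM in all 6 Ctrl libraries and above 29 CPM in all 6 MG132 libraries, while *Bag6* stays between 38.0 and 57.8 CPM throughout.

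*Hspb1* (Entrez 15507, GRCm38 chromosome 5, 135887919 to 135889563, plus strand) encodes HSP25, the mouse counterpart of human HSP27. It was close to absent from Ctrl libraries, with 2.28, 0.554 and 2.65 CPM in the somas and 0.529, 3.13 and 1.85 CPM in the neurites, which rest on 2 to 33 counts. After MG132 it measured 72.7, 64.0 and 80.2 CPM in somas and 29.2, 53.8 and 64.1 CPM in neurites. Every MG132 library thus lay far above every Ctrl library of its fraction, and the lowest MG132 value came from a neurite library. The log2 change was 5.28 in somas (SE 0.49, edgeR adjusted p = 5.6e-06) and 4.58 in neurites (SE 0.49, edgeR adjusted p = 1.46e-05). Without Ctrl neurites replicate 2, the highest of that group, the neurite change was 5.24 (edgeR adjusted p = 6.08e-05). Of the 856 possible reads of 75 bases from the *Hspb1* mRNA, 405 (47.3%) match the pseudogene *Hsp25-ps1* or *Gm9817* exactly as well. These reads cannot be placed on *Hspb1* alone, and its level is uncertain. Reads that map to several places are left out under the stated counting defaults, so the level may be too low.

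*Bag3* (Entrez 29810, chromosome 7, 128523583 to 128546981, plus strand) is the stress-inducible BAG factor. Its soma levels were 17.0, 29.7 and 22.7 CPM in Ctrl and 95.5, 145 and 166 CPM in MG132 libraries. In neurites they were 14.0, 18.0 and 18.2 CPM in Ctrl and 52.5, 66.8 and 97.1 CPM in MG132 libraries. The groups did not overlap in either fraction, although the highest MG132 neurite library only just passed the lowest MG132 soma library. *Bag3* rose by a log2 change of 2.55 in somas (SE 0.28, edgeR adjusted p = 2.29e-05) and 2.10 in neurites (SE 0.28, edgeR adjusted p = 8.32e-05).

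*Cryab* (Entrez 12955, chromosome 9, 50745951 to 50756636, plus strand) encodes αB-crystallin, an sHSP abundant in lens, muscle and glia. In somas it measured 50.1, 32.5 and 37.0 CPM without and 208, 161 and 316 CPM with MG132, and in neurites 103, 109 and 85.8 CPM without and 267.6, 287.8 and 274.3 CPM with MG132. Again no MG132 library overlapped its Ctrl group, and the MG132 soma libraries were the most scattered. The log2 change was 2.52 in somas (SE 0.24, edgeR adjusted p = 7.69e-06) and 1.48 in neurites (SE 0.23, edgeR adjusted p = 0.000321). Its annotated exons share 252 bases, 17.0% of their length, with *Hspb2* on the other strand, which had at most 10 counts in any library. In unstranded counting, reads in these bases cannot be placed on *Cryab* alone. The low *Hspb2* count does not settle how many there were, so the *Cryab* level may be too low. Of the oligodendrocyte and astrocyte markers, from cells known to make αB-crystallin, 0 of 7 in each list were called higher with MG132 in either fraction, while 1 and 4 were called lower in somas and 1 and 3 in neurites. With the replicate number as a block these were 4 and 5 in somas and 3 and 4 in neurites, again with 0 higher. Of all tested genes, 9% were called higher and 5.58% lower in somas without the block, and 9.25% and 5.44% in neurites. Which cells the *Cryab* rise came from was not tested.

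*Hspb8* (Entrez 80888, chromosome 5, 116408491 to 116422864, minus strand) encodes HSP22, the sHSP that binds BAG3. In somas it rose from 51.4, 62.5 and 63.8 CPM in Ctrl to 117, 138 and 158 CPM in MG132 libraries, a log2 change of 1.21 (SE 0.19, edgeR adjusted p = 0.000296). In neurites its levels were 147, 139 and 178 CPM in Ctrl and 151, 213 and 205 CPM in MG132 libraries. These groups overlapped, and the log2 difference of 0.30 (SE 0.18, 95% interval -0.10 to 0.69, edgeR adjusted p = 0.255) did not pass the test.

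**Figure D2:**
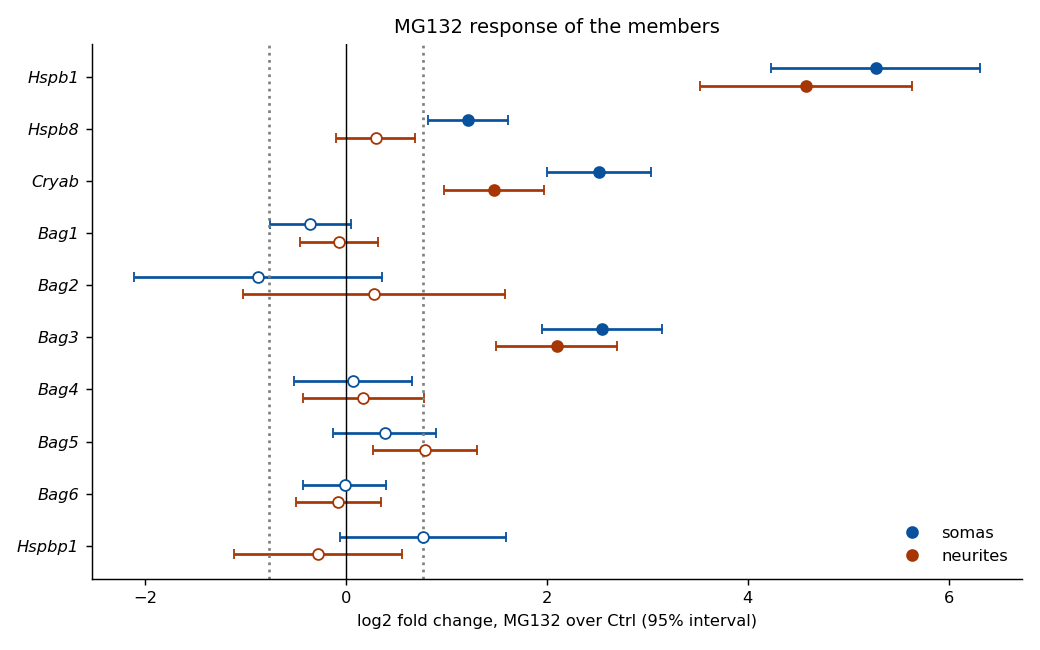
Log2 fold change of MG132 over Ctrl (x axis) for each member in somas and in neurites, with the 95% interval as a bar. Filled points were called changed, open points were not, and the dotted lines mark a 1.7-fold change. *Hspb1*, *Cryab* and *Bag3* are filled in both fractions and *Hspb8* in somas, with values of 5.28, 2.52, 2.55 and 1.21 there.

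The promoters of the responding members are shown because heat shock factors bind arrays of the unit nGAAn in alternating direction. Pairs of facing units, spelled GAANNTTC or TTCNNGAA (each reads the same on both strands), were searched in the 300 bases from 250 before to 50 after each start in the RefSeq table (GRCm38.p6), which held 8 of the 10 members and not *Cryab* or *Bag4*. A pair was found for 3 of the 8, *Hspb1*, *Hspb8* and *Bag3*, and in none of the windows of *Bag1*, *Bag2*, *Bag5*, *Bag6* and *Hspbp1*. Of all 32851 promoters of this length, 15.1% held a pair. Counted by gene, 4587 of 27025 held a pair in a promoter. An array of 3 alternating units with this spacing was in none of the member windows and in 0.603% of all promoters. The sequences, at chr5:135887669-135887968 on the plus strand for *Hspb1*, chr5:116422815-116423114 on the minus strand for *Hspb8* and chr7:128523333-128523632 on the plus strand for *Bag3*, read as follows, with the pairs in capitals.
Hspb1: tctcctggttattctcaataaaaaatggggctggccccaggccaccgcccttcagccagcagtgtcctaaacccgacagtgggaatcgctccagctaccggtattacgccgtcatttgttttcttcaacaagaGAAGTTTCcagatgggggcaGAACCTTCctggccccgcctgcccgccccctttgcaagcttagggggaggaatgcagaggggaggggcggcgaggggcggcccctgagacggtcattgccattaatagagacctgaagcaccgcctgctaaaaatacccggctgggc
Hspb8: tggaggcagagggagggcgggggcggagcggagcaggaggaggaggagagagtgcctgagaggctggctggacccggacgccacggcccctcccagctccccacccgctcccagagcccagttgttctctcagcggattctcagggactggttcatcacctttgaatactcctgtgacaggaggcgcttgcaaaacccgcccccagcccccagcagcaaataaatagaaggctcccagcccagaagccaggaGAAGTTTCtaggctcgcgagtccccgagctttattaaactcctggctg
Bag3: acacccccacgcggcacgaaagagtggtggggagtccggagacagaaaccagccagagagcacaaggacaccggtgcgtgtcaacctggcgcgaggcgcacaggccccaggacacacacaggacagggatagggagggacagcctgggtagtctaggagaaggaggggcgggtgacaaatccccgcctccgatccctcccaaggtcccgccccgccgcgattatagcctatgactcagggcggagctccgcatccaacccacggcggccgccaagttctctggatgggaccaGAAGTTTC
In *Hspb1* the pairs lie 117 to 110 and 97 to 90 bases before the start. In *Hspb8* the pair lies 2 to 9 bases after it and in *Bag3* 42 to 49 bases after it, at the very end of the window. The first *Hspb1* pair and those of *Hspb8* and *Bag3* have the same letters, GAAGTTTC, which occur on either strand in 1.21% of all promoters. These matches are letters in a window and say nothing of which factor binds there.

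The other 6 members gave no call with MG132 in the fit without a block. *Bag5* (Entrez 70369, chromosome 12, 111709488 to 111713256), which carries several BAG domains in tandem, came closest. It measured 21.2, 16.0 and 22.5 CPM in Ctrl neurites and 39.7, 25.6 and 38.0 CPM in MG132 neurites, groups that did not overlap. The log2 difference of 0.79 (SE 0.24, edgeR adjusted p = 0.0265) missed the threshold on p. Blocked by replicate number it was 0.78 and was called (edgeR adjusted p = 0.00922), and the adjusted p ranged from 0.00922 to 0.239 over the alternatives tried. In somas *Bag5* measured 15.1 to 20.4 CPM without and 19.1 to 24.8 CPM with MG132, a log2 difference of 0.39 (SE 0.24, edgeR adjusted p = 0.256).

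*Bag1* (Entrez 12017, chromosome 4, 40936398 to 40948294) had soma levels of 33.2, 33.5 and 35.5 CPM in Ctrl and 21.0, 28.2 and 30.8 CPM in MG132 libraries. All 3 MG132 soma libraries lay below the Ctrl ones, but the log2 difference of -0.35 (SE 0.19, edgeR adjusted p = 0.182) did not pass. In neurites the MG132 difference of *Bag1* was -0.07 (95% interval -0.46 to 0.32, edgeR adjusted p = 0.822). *Bag6* (Entrez 224727, chromosome 17, 35135156 to 35147321), a ribosome-associated holdase that hands membrane proteins with a tail anchor to their insertion route, had the flattest profile, with group means of 49.3 ± 5.35, 48.9 ± 4.80, 49.5 ± 9.23 and 46.9 ± 7.70 CPM in Ctrl somas, MG132 somas, Ctrl neurites and MG132 neurites. Its MG132 log2 differences were -0.01 in somas (95% interval -0.43 to 0.41) and -0.08 in neurites (95% interval -0.50 to 0.35), so changes above 1.7-fold lay outside both intervals.

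*Bag4* (Entrez 67384, chromosome 8, 25764538 to 25785209), also known as SODD, a silencer of death domain receptors, ranged from 17.6 to 35.1 CPM over the 12 libraries, with MG132 log2 differences of 0.07 in somas (SE 0.27, edgeR adjusted p = 0.882) and 0.18 in neurites (SE 0.28, edgeR adjusted p = 0.682). Its exons share 14.8% of their bases with the antisense gene *Gm17484*, which had at most 2 counts in any library. Reads in those bases cannot be placed on *Bag4* alone either, so its level may be too low. *Bag2* (Entrez 213539, chromosome 1, 33745484 to 33757750), an inhibitor of the ubiquitin ligase CHIP, was low everywhere. Its soma levels were 9.12, 8.43 and 12.6 CPM without and 5.92, 1.39 and 8.57 CPM with MG132, and its neurite levels 1.85, 2.57 and 7.90 CPM without and 3.19, 5.38 and 6.39 CPM with MG132. With as few as 7 counts in a library, its MG132 difference of -0.87 in somas had a 95% interval of -2.11 to 0.36 (edgeR adjusted p = 0.289). *Hspbp1* (Entrez 66245, chromosome 7, 4660515 to 4685188) ranged from 4.08 to 11.3 CPM, with differences of 0.77 in somas (SE 0.39, edgeR adjusted p = 0.157) and -0.27 in neurites (SE 0.39, edgeR adjusted p = 0.642). For the low genes *Bag2* and *Hspbp1* the intervals leave room for changes beyond 1.7-fold. The 95% interval of *Bag4* was -0.52 to 0.65 in somas, within 1.7-fold, and -0.43 to 0.78 in neurites, just past it at the upper end.

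The second question was how the mRNAs divide between neurites and somas. In Ctrl neurons 3 of the 10 members were called higher in neurites, *Bag1*, *Hspb8* and *Cryab*, against 6.15% of all tested genes, and 0 were called lower, against 1.28%. After MG132 only *Bag1* was called higher (1 of 10, against 6.92% of all genes) and again 0 lower (against 2.08%). The median log2 ratio of the members was 0.16 in Ctrl and -0.09 in MG132 neurons, and that of all genes -0.04 and -0.08. These comparisons use the same 12 libraries as the MG132 contrasts and are not independent of them. With the replicate number as a block 3 members were called higher and 0 lower in Ctrl neurons. In MG132 neurons 1 was then called higher, *Bag1*, and 1 lower, *Bag3*. The shares of all genes above belong to the fit without the block and are no background for these counts.

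*Bag1* had the largest ratio of the members. Its neurite levels were 155, 156 and 215 CPM in Ctrl and 159, 187 and 157 CPM in MG132 libraries, so the lowest neurite library had 4.36 times the level of the highest soma library. The log2 ratio of neurites to somas was 2.37 in Ctrl (SE 0.19, edgeR adjusted p = 1.83e-06) and 2.65 in MG132 neurons (SE 0.20, edgeR adjusted p = 1.83e-06). *Bag1* was called in both conditions under each of the alternative settings. Of the astrocyte markers, 3 of 7 were called higher in neurites in Ctrl (4 of 7 with the replicate block) and 4 of 7 in MG132 neurons, with 1 of 7 lower in each. No neuronal or oligodendrocyte marker was called without the block. With it *Map2*, *Camk2a*, *Mbp* and *Mobp* were called higher in both conditions, and *Snap25* lower in MG132 neurons. Without the block 6.15% and 6.92% of all tested genes were called higher, and 1.28% and 2.08% lower. The part of these cell types in the *Bag1* ratio was not tested.

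*Hspb8* and *Cryab* were called higher in neurites of Ctrl neurons and were not called after MG132. In Ctrl neurons the log2 ratio was 1.39 for *Hspb8* (SE 0.19, edgeR adjusted p = 0.000117) and 1.32 for *Cryab* (SE 0.23, edgeR adjusted p = 0.0012), with all neurite libraries above all soma libraries. The *Cryab* call was lost without Ctrl somas replicate 2 (log2 ratio 1.11, edgeR adjusted p = 0.0115) or replicate 3 (1.19, edgeR adjusted p = 0.0111), and its adjusted p ranged from 1.67e-06 to 0.173 over all alternatives. On total counts without scaling factors, which moved the median ratio of all genes in Ctrl neurons to -0.70, neither gene was called, with ratios of 0.73 for *Hspb8* and 0.63 for *Cryab*. In MG132 neurons the log2 ratio was 0.47 for *Hspb8* (SE 0.18, edgeR adjusted p = 0.0959) and 0.27 for *Cryab* (SE 0.23, edgeR adjusted p = 0.450), and the fractions overlapped. The difference between the Ctrl and MG132 ratios is the interaction tested below. The oligodendrocyte marker *Mbp*, which encodes myelin basic protein, measured 1284, 497 and 2846 CPM in Ctrl somas and 11555, 3714 and 18913 CPM in Ctrl neurites, and 773, 207 and 2795 CPM in MG132 somas and 5705, 2323 and 13631 CPM in MG132 neurites. It was thus higher in the neurite library of every same-numbered pair, while its level differed widely between numbers. Of the 7 oligodendrocyte markers 0 were called between fractions in either condition without the replicate block, and 2, *Mbp* and *Mobp*, were called higher in neurites in both conditions with it. With the block the log2 ratio of *Mbp* was 2.95 in Ctrl and 2.83 in MG132 neurons (edgeR adjusted p = 3.04e-10 and 8.89e-10). The part of these cells in the *Hspb8* and *Cryab* ratios was not tested.

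*Bag3* leaned the other way. In MG132 neurons its log2 ratio was -0.91 (SE 0.26, edgeR adjusted p = 0.027), short of the threshold, and it was lower in neurites in 3 of 3 same-numbered pairs. A fit that held replicate number as a block gave -0.91 and made the call (edgeR adjusted p = 0.000254, range over the alternatives 0.000254 to 0.131). In Ctrl neurons it was -0.45 (SE 0.28, edgeR adjusted p = 0.319). *Bag5* showed a log2 ratio of 0.60 in MG132 neurons (SE 0.24, edgeR adjusted p = 0.104), with every neurite library above every soma library, and 0.19 in Ctrl neurons. *Hspb1* gave ratios of 0.13 (SE 0.53) in Ctrl and -0.56 (SE 0.39) in MG132 neurons, *Bag2* -1.27 (SE 0.60) and -0.12 (SE 0.59), and *Hspbp1* 0.61 (SE 0.39) and -0.44 (SE 0.39), none of which passed. On total counts without scaling factors the *Hspb1* ratio in Ctrl neurons was -0.48, the *Hspbp1* ratio -0.07 and the *Bag5* ratio -0.48. In Ctrl neurons the *Bag2* fractions did not overlap, with all 3 neurite libraries below the somas. Its ratio there was -2.22 (edgeR adjusted p = 0.0458) without Ctrl neurites replicate 3, the highest of that group. *Bag4* and *Bag6* had ratios between -0.32 and 0.00.

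**Figure D3:**
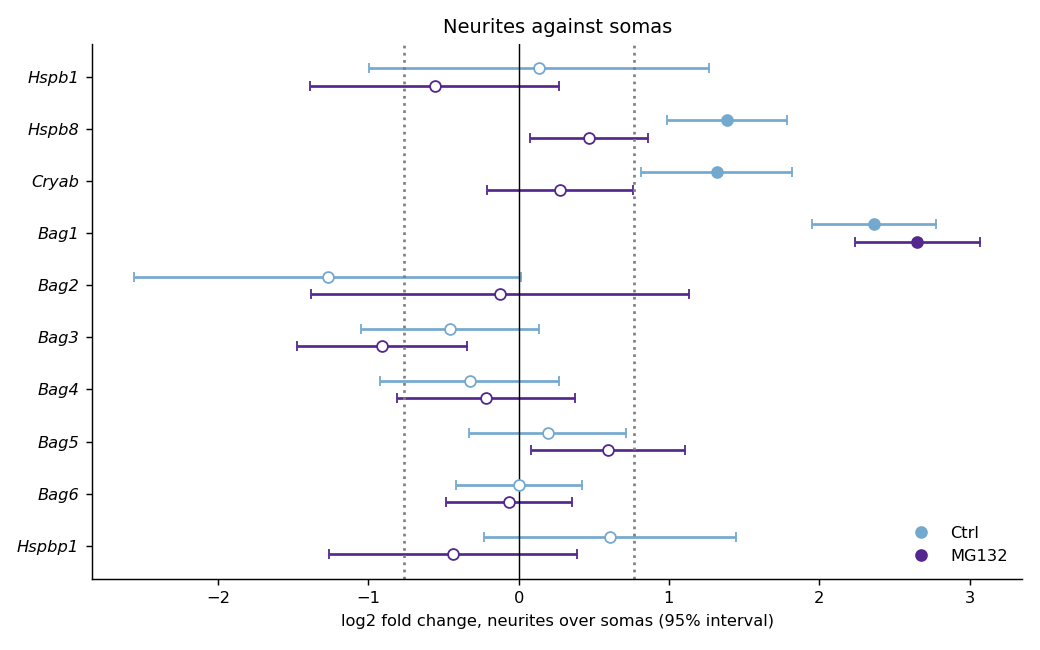
Log2 ratio of neurites over somas (x axis) for each member in Ctrl and in MG132 neurons, with 95% intervals. Filled points were called, open points were not, and the dotted lines mark a 1.7-fold difference. *Bag1* is filled in both conditions (2.37 and 2.65), and *Hspb8* and *Cryab* in Ctrl neurons (1.39 and 1.32).

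The third question was whether the MG132 response differed between the fractions, which was tested as an interaction with an adjusted p under 0.01 and no threshold on the fold. No member was called, and neither was any other gene (0% of the 14185 tested in either direction), while 1000 genes had an unadjusted p under 0.05 and the lowest adjusted p of any gene was 0.328. The DESeq2 Wald test called 27 genes, 0 of them members. At the unadjusted level 2 members passed, *Hspb8* with a response lower in neurites by a log2 difference of -0.92 (SE 0.26, 95% interval -1.48 to -0.36, edgeR unadjusted p = 0.00311, adjusted p = 0.449) and *Cryab* with -1.04 (SE 0.33, 95% interval -1.74 to -0.35, edgeR unadjusted p = 0.00593, adjusted p = 0.478). The larger soma response of both is thus not established over all genes. For *Hspb1* the difference was -0.69 (SE 0.66) and for *Bag3* -0.45 (SE 0.38), with intervals of -2.10 to 0.71 and -1.27 to 0.36. Without Ctrl neurites replicate 2 the *Hspb1* difference was -0.04.

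To compare levels between genes, CPM were divided by the length of all annotated exons of a gene in kilobases (GENCODE M21). The levels of *Cryab* and *Bag4* may be too low because of the exon bases they share with other genes. In Ctrl somas *Hspb8* (30.4 ± 3.50 CPM per kilobase), *Cryab* (27.0 ± 6.20) and *Bag1* (25.2 ± 0.950) led with overlapping ranges, and *Bag3* followed at 9.03 ± 2.49. *Bag6* (7.93 ± 0.861), *Bag5* (6.91 ± 1.10), *Bag4* (3.73 ± 0.830), *Bag2* (3.28 ± 0.727), *Hspbp1* (2.79 ± 0.941) and *Hspb1* (1.77 ± 1.08) came next, and of these neighbours only *Bag5* and *Bag4* had ranges that did not overlap. In MG132 somas *Cryab* stood first at 154 ± 53.8 CPM per kilobase, above *Hspb8* (70.4 ± 10.5), *Hspb1* (70.2 ± 7.86) and *Bag3* (52.9 ± 14.1), whose ranges overlapped in turn. *Hspb1* had moved from the last place to the third, by a level that may be too low because of its shared reads. *Bag1* (19.8 ± 3.77), *Bag5* (9.04 ± 1.25), *Bag6* (7.86 ± 0.772), *Hspbp1* (4.78 ± 1.06), *Bag4* (3.88 ± 1.26) and *Bag2* (1.73 ± 1.19) stood below them.

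In Ctrl neurites *Bag1* stood first at 130 ± 25.5 CPM per kilobase, apart from *Hspb8* (79.3 ± 10.7) and *Cryab* (67.3 ± 8.31), which overlapped. All other members lay at or below 7.96 ± 1.49, the level of *Bag6*, and each overlapped its neighbour in the order. In MG132 neurites *Cryab* (187 ± 6.94), *Bag1* (124 ± 12.6) and *Hspb8* (97.3 ± 17.1) had ranges that did not overlap, followed by *Hspb1* (47.6 ± 17.4) and *Bag3* (28.2 ± 8.90), which did. *Bag5* (13.7 ± 3.07) stood clear of *Bag6* (7.54 ± 1.24), and *Hspbp1*, *Bag4* and *Bag2* were lowest.

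The summed level of the 3 sHSPs per kilobase was 54.6 to 62.5 in Ctrl somas, 241.5 to 372 in MG132 somas, 145 to 151 in Ctrl neurites and 287 to 356 in MG132 neurites. *Hspb1* made up 2.93% ± 1.72 of this sum in Ctrl somas and 24.2% ± 2.87 in MG132 somas, and 1.20% ± 0.847 and 14.1% ± 3.92 in neurites. Its shares may be too low, since reads it shares with pseudogenes are left out. Those of *Cryab* are uncertain too, because of the bases it shares with *Hspb2*. *Cryab* made up 45.3% ± 7.77 and 51.4% ± 6.20 in somas and 45.4% ± 6.18 and 56.8% ± 5.54 in neurites. The share of *Hspb8* was 51.7% ± 8.57 and 24.3% ± 4.26 in somas and 53.4% ± 6.37 and 29.2% ± 1.87 in neurites, a smaller share of a larger sum.

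Among the BAG factors and *Hspbp1*, *Bag1* made up 42.9% ± 1.10 of the summed level per kilobase in Ctrl somas and 19.8% ± 0.505 in MG132 somas, while *Bag3* went from 15.3% ± 4.02 to 52.3% ± 5.17. In neurites *Bag1* stayed the most abundant, at 80.7% ± 1.02 in Ctrl and 68.2% ± 4.62 in MG132 libraries, and *Bag3* went from 4.11% ± 0.709 to 15.4% ± 4.55. The ratio of *Bag3* to *Bag1* per kilobase was 0.270, 0.467 and 0.337 in Ctrl somas and 2.40, 2.72 and 2.83 in MG132 somas. In neurites it was 0.0476, 0.0606 and 0.0444 in Ctrl and 0.174, 0.188 and 0.325 in MG132 libraries. *Bag3* thus exceeded *Bag1* in all 3 MG132 soma libraries and in no other library.

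**Figure D4:**
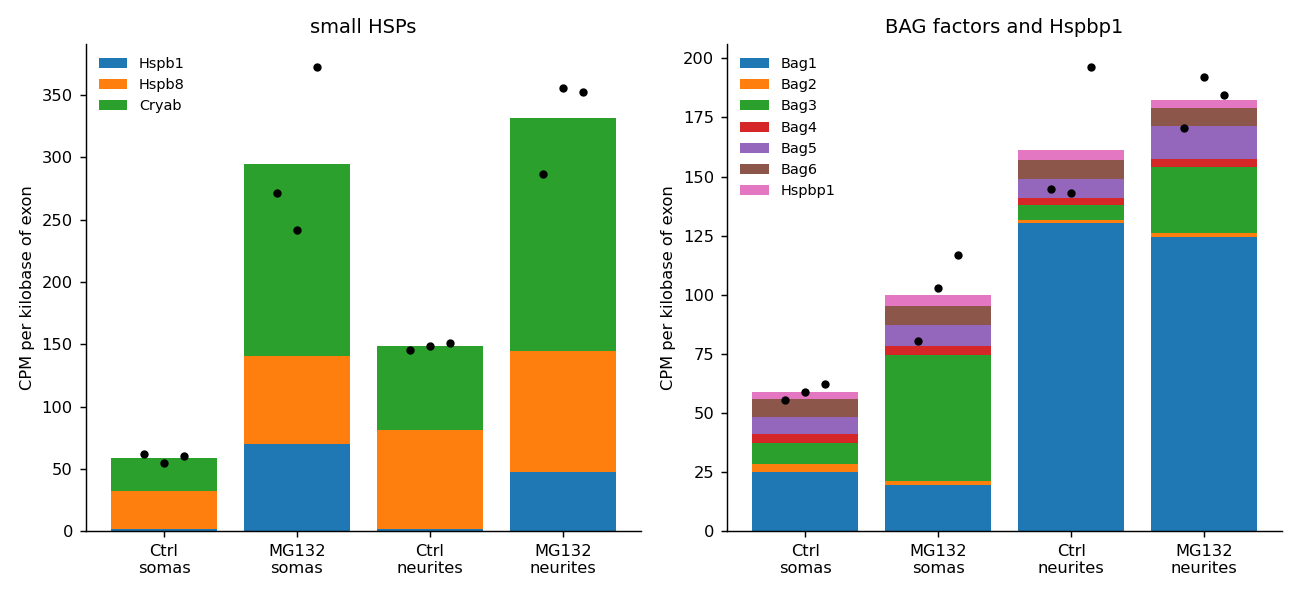
Summed mRNA level of the 3 sHSPs (left) and of the 6 BAG factors with *Hspbp1* (right) in CPM per kilobase of exon (y axis, starting at 0) for the 4 groups. Stacked bars are group means by gene and points are the sums of single libraries (n = 3). On average over libraries *Bag3* makes up 52.3% of the sum on the right in MG132 somas and 15.4% in MG132 neurites, where *Bag1* makes up 68.2%.

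The partners of these genes gave the following counts of calls with MG132. For each list the background is all tested genes, of which 9% were called higher and 5.58% lower in somas. In neurites 9.25% were called higher and 5.44% lower. Their median log2 change was -0.07 in somas and -0.16 in neurites. Of the other 7 small heat shock genes, only *Hspb6* passed the filter, with log2 differences of -0.86 in somas (SE 0.26, edgeR adjusted p = 0.0244) and -0.46 in neurites (SE 0.26, edgeR adjusted p = 0.212), neither called. With the replicate block *Hspb6* was called lower in somas (-0.84, edgeR adjusted p = 0.00527). *Hspb2*, *Hspb3*, *Hspb7*, *Hspb9*, *Odf1* and *Cryaa* had at most 15 counts in any library. Of 7 further nucleotide exchange factors of HSP70, 4 rose in somas and 3 in neurites, with none lower, and median log2 changes of 0.98 and 0.77. *Hsph1*, which encodes HSP110, rose by 2.93 (SE 0.21) in somas and 3.42 (SE 0.21) in neurites, and *Grpel1*, the mitochondrial exchange factor, by 1.24 (SE 0.24) and 1.68 (SE 0.24). *Hspa4l* rose by 1.03 (SE 0.16) and 0.77 (SE 0.16), and *Hspa4* by 0.98 (SE 0.16) in somas. In neurites the *Hspa4* difference of 0.75 (SE 0.16) stayed just under 1.7-fold. *Grpel2* had differences of 0.88 (SE 0.56) and 2.05 (SE 0.60, edgeR adjusted p = 0.0194), neither called. With the replicate block *Grpel2* was called higher in neurites (2.21, edgeR adjusted p = 0.000622) and *Sil1*, the exchange factor of the HSP70 in the endoplasmic reticulum, lower in somas (-0.85, edgeR adjusted p = 0.00604).

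Of 10 partners of BAG3 and HSPB8 in chaperone-assisted autophagy, 5 rose in both fractions, the HSP70 genes *Hspa1a*, *Hspa1b* and *Hspa8*, the HSP40 *Dnajb1* and the autophagy receptor *Sqstm1* (p62). The median of the 10 was 1.38 in somas and 1.72 in neurites, against -0.07 and -0.16 over all tested genes. *Hspa1a* and *Hspa1b*, near-identical copies whose reads cannot be told apart with certainty, stood at no more than 2.22 and 4.08 CPM in the Ctrl libraries and rose by 8.75 (SE 0.46) and 8.38 (SE 0.41) in somas and by 9.15 (SE 0.51) and 9.23 (SE 0.45) in neurites. *Dnajb1* rose by 4.15 (SE 0.20) in somas and 3.64 (SE 0.20) in neurites, *Sqstm1* by 3.12 (SE 0.23) and 3.21 (SE 0.23), and *Hspa8* by 1.97 (SE 0.19) and 2.58 (SE 0.19). The actin-binding partner *Synpo2* fell in neurites (log2 change -2.40, SE 0.39, edgeR adjusted p = 0.000408) from 129, 73.7 and 58.7 CPM to 17.3, 21.3 and 10.1 CPM, and *Wipi1*, an early autophagosome factor, fell there too (-1.41, SE 0.33, edgeR adjusted p = 0.0056). In somas neither was called (-1.46 and -0.63), although *Synpo2* was with the replicate block (-1.48, edgeR adjusted p = 1.56e-05). *Stub1*, which encodes CHIP, differed by -0.20 (SE 0.40) and -0.34 (SE 0.42) and was not called.

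Of 8 genes of the BAG6 complex and the tail-anchored protein pathway, none was called in somas and 1 in neurites, the membrane receptor gene *Caml*, which rose by 1.36 (SE 0.30, edgeR adjusted p = 0.00352). Of all tested genes 9.25% were called higher in neurites, so 1 of 8 is no result about this list. The median was 0.02 in somas and 0.17 in neurites, against -0.07 and -0.16 over all tested genes. The differences of *Bag6* itself were -0.01 and -0.08. Of 3 heat shock factor genes 2 were tested. *Hsf2* rose by 1.52 (SE 0.24, edgeR adjusted p = 0.00037) in somas and 1.90 (SE 0.25, edgeR adjusted p = 6.86e-05) in neurites, and *Hsf1* rose by 1.69 (SE 0.38, edgeR adjusted p = 0.00442) in neurites, with 1.27 (SE 0.36, edgeR adjusted p = 0.0166) in somas, which was not called. With the replicate block the soma difference of *Hsf1* was 1.24 and was called (edgeR adjusted p = 0.00555). *Hsf4* had at most 22 counts in a library.

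**Figure D5:**
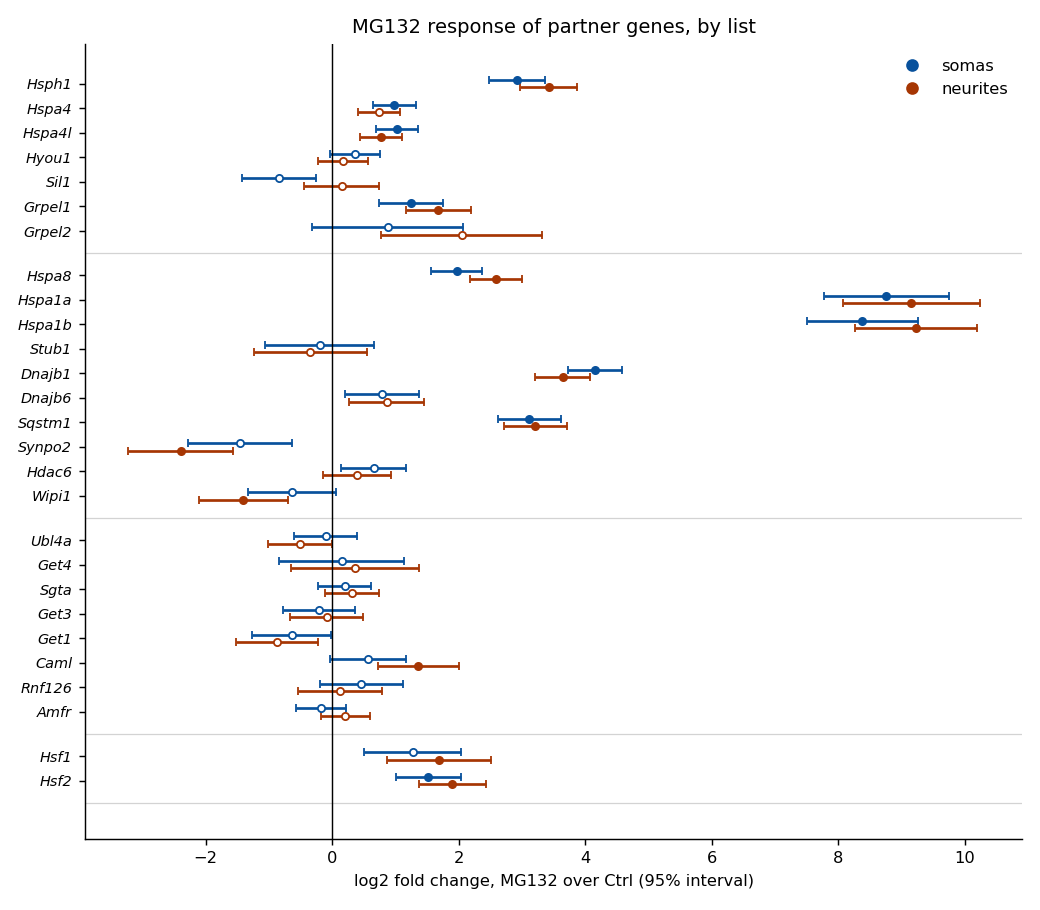
Log2 fold change of MG132 over Ctrl (x axis) with 95% intervals for genes of 4 lists, from top to bottom the other nucleotide exchange factors, the BAG3-HSPB8 partners, the BAG6 pathway and the heat shock factors. Filled points were called. The HSP70 genes *Hspa1a* and *Hspa1b* lie farthest to the right, at 8.38 to 9.23, and most of the BAG6 pathway lies near 0.

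Across the 12 libraries, the pattern of *Hspb1* on the log2 CPM scale was closest to that of *Bag3* among the members (Pearson r = 0.919), followed by *Cryab* (r = 0.850), and *Hspb8* was closest to *Cryab* (r = 0.826). Among 13900 tested genes averaging 1 CPM or more, those most like *Hspb1* were *Utp4* (r = 0.987), *Gdf15* (r = 0.981) and *Hgs* (r = 0.981). Those most like *Bag3* were *Flnc* (r = 0.988), *Traf6* (r = 0.983) and *Nup98* (r = 0.981). *Hspb8* was closest to *H2-Q4* (r = 0.986), *Mafk* (r = 0.977) and *Socs4* (r = 0.976), and *Cryab* to *Zfp131* (r = 0.976), *Hspe1* (r = 0.972) and *Plrg1* (r = 0.972). These correlations describe 12 points that share 4 groups and their library scaling, and they carry no test.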

How the data were processed

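Per the labels and the methods, the authors trimmed reads with Trimmomatic 0.38.0, aligned them as single-end reads to mm10 with STAR and counted them per gene with featureCounts 2.0.1 at default settings. The deposited values are whole-number counts per Entrez gene, not normalized or filtered. Under these defaults counting is unstranded, and multi-mapping reads are left out.

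The members and lists were chosen with earlier results of these data known. Symbols came from RefSeq (93.0% of genes) and exon lengths from GENCODE M21. The test was edgeR 4.0.16 (R 4.3.3), using filterByExpr, TMM factors and 1 quasi-likelihood fit of 4 group means over 12 libraries, with Benjamini-Hochberg adjustment over 14185 genes. The fit was tested on simulated data. Depth was 4247610 to 22166347 counts per library, giving a median SE of 0.36 for a log2 change. Alternatives were other scalings, filters, thresholds, DESeq2 1.42.0, a block for replicate number, fits of the compared groups alone and each library left out. Same-numbered libraries deviated together (correlation 0.0972 to 0.248, over 0.1 in 17 of 18 pairs, all but MG132 somas with Ctrl neurites number 2). The rule asked for over 0.1 in each pair, so the numbers were taken to pair the 4 comparisons of 2 groups and not the interaction. The main fit, which the figures and background shares show, holds no block all the same. Outside the interaction, member and list counts from the other fits are given without the share of all tested genes. Member calls that the block changed are given beside it. All members were named. From each other list, called genes were named, with up to 4 of the largest changes. For 4 members the 3 genes with the highest Pearson r were named.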

Additional observations from a re-analysis of the deposited data

How the results depend on the processing

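Of 11 called member differences, none changed direction under any alternative, and 5 of 152 refitted values lost the call at the thresholds used, given above for *Cryab* and below for *Hspb8*. Total counts without scaling factors moved the median neurite to soma ratio of all genes to -0.70 in Ctrl and -0.86 in MG132 neurons. There 1 member was called between fractions in Ctrl neurons (*Bag1*) and 2 in MG132 neurons, *Bag3* being lower at -1.73, the *Bag1* ratios were 1.71 and 1.89, and *Hspb8* lost its calls for MG132 in somas (1.19, edgeR adjusted p = 0.0113) and for neurites against somas in Ctrl neurons (0.73, edgeR adjusted p = 0.0943). A log2 threshold of 1.7 left 3 members called with MG132 in somas, where *Hspb8* (1.21) was lost, 2 in neurites, where *Cryab* (1.48) was lost, and 1 in each comparison of fractions, *Bag1*. In MG132 neurons 2 members, *Bag1* and *Bag3*, were called by DESeq2, without a count filter, at an adjusted p under 0.05 and with the replicate block. Asking for 10 counts in each library removed *Hspb1* and *Bag2*, which then have no value. Leaving out each library in turn gave 2 to 3 calls in the Ctrl comparison of fractions and the same counts as above elsewhere. For *Bag2*, the MG132 difference in neurites rose from 0.28 to 1.26 and the interaction from 1.15 to 2.14 without Ctrl neurites replicate 3, and the interaction was 1.74 without MG132 somas replicate 3, with none called. In the interaction, whose libraries the numbers were not taken to pair, the replicate block gave *Hspb8* -0.92 (edgeR adjusted p = 0.0316) and *Cryab* -1.04 (0.0813), over ranges of 0.0316 to 0.99996 and 0.0813 to 0.99996 across all alternatives, and called 21 genes, none of them a member. The block changed no call of a member other than those of *Bag5* and *Bag3* given above.

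Sign changes occurred only among differences that were not called (55 of 588 refitted values). With MG132 in somas these were *Bag4* at -0.034 under the stricter filter and *Bag6* at 0.0065 without a filter. With MG132 in neurites they were *Bag1* at 0.077 and *Bag6* at 0.069 without a filter, both genes at 0.038 and 0.031 without mitochondrial genes and the most abundant gene, and *Bag4* at -0.031 on total counts. For neurites against somas on total counts they were, in Ctrl neurons, *Hspb1* at -0.48, *Bag5* at -0.48, *Bag6* at -0.68 and *Hspbp1* at -0.066, and in MG132 neurons *Hspb8* at -0.30, *Cryab* at -0.52 and *Bag5* at -0.25. *Bag6* in Ctrl neurons also gave -0.037 with DESeq2 size factors, -0.040 with DESeq2, -0.070 without mitochondrial genes and the most abundant gene, -0.074 without a filter and -0.055 under the stricter filter. *Bag2* in MG132 neurons gave 0.050 with the replicate block. In the interaction *Bag4* gave -0.092 on total counts, and *Bag6* 0.045 without mitochondrial genes and the most abundant gene and 0.063 without a filter. The cause of these changes was not tested.

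With each library left out in turn, the MG132 difference in somas ranged from -0.15 to 0.30 for *Bag4* and from -0.10 to 0.065 for *Bag6*. In neurites it ranged from -0.16 to 0.23 for *Bag1*, -0.030 to 1.26 for *Bag2*, -0.21 to 0.18 for *Bag6* and -0.50 to 0.17 for *Hspbp1*. Neurites against somas ranged from -0.51 to 0.46 for *Hspb1* and -0.20 to 0.15 for *Bag6* in Ctrl neurons, and from -0.53 to 0.45 for *Bag2*, -0.45 to 0.057 for *Bag4* and -0.13 to 0.12 for *Bag6* in MG132 neurons. In the interaction *Bag4* ranged from -0.12 to 0.41 and *Bag6* from -0.20 to 0.19. Dividing by the longest transcript in place of all exons moved the per-kilobase level in Ctrl somas by more than 1 SD for 5 members, *Bag2* (5.40), *Bag4* (5.37), *Bag5* (8.10), *Bag6* (12.8) and *Cryab* (35.7). The order changed too, with *Cryab* above *Hspb8* (32.6) and *Bag6* above *Bag3* (9.03). Shares of the summed levels were computed with the length of all exons only. With 3 libraries per group, changes of the low genes *Bag2* and *Hspbp1* near 1.7-fold could not be resolved.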
